A study of Mus musculus with 10 samples.

Results

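The data described here are the last interval of a differentiation series, day 10 to day 14, in embryoid bodies (EBs) of the control line. The comparison sets 1 library of day 14 against 1 library of day 10, 2 of the 10 libraries of the series. For each of 22878 gene symbols the transcript with the highest mean read count over the 10 libraries was taken, and genes with an RPKM (reads per kilobase of transcript in a library of fixed size) of at least 3 in either library were kept, which gave 10888 genes. The gene nearest above that level was Plcd3 (3.000 and 1.258 RPKM) and the nearest below it was Ufsp1 (2.999 and 2.586 RPKM).

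Both libraries came from R1 mouse embryonic stem (ES) cells carrying a lentiviral short hairpin RNA against luciferase (shLuc), a sequence that mice lack. The cells were taken off LIF and grown as EBs in low-attachment dishes, and polyA RNA was sequenced. The same interval was also sequenced in EBs of the line with a hairpin against the methyltransferase Smyd5 (shSmyd5), again with 1 library per day, and ES cells and EBs of 24 h and day 6 complete the series. Per the labels, ES cells for RNA sequencing were kept in LIF medium with the GSK3 inhibitor CHIR9901 on gelatin to clear feeder cells. Reads in the kept transcripts numbered 22131320 at day 10 and 28605514 at day 14, in a series that ranged from 3895537 to 43377815.

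EBs are aggregates of ES cells in which cells of ectoderm, mesoderm and endoderm arise side by side. A visceral endoderm-like outer layer makes the carrier proteins of the yolk sac, a first wave of primitive red cells carries embryonic globins, and heart muscle, mesenchyme and macrophages follow. In bulk RNA, fewer cells of a type and less RNA per cell cannot be told apart, so each value below is a level in the whole culture.

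With 1 library per day there was no replicate check within shLuc, and no test was made there. Each log2 fold is log2(RPKM + 0.1) at day 14 less that at day 10, so it understates the change of low genes. Its 95% interval is the exact binomial interval of the reads and covers counting error only. The one test the data allow is an edgeR quasi-likelihood fit of the 4 libraries of both days and both hairpins with the hairpin as a block, named the shared test here. It asks for an effect common to both hairpins and has 1 residual degree of freedom. No gene has a spread of its own there. The spread is taken from all genes and varies with the level, with a common biological coefficient of variation of 0.183. The shared test is not a test within shLuc. The words rose and fell are used only for genes with an adjusted p under 0.05 in it.

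Of the 3 genes that mark the interval, Col3a1, a fibrillar collagen of mesenchyme, went from 137 to 634 RPKM, a log2 fold of 2.21, 95% interval 2.19 to 2.23. Fabp7, a fatty acid carrier of radial glia, stood at 9.05 RPKM at day 10 and 65.5 RPKM at day 14, a log2 fold of 2.84, 95% interval 2.64 to 3.05 (1.82 freed of the GC trend described below). Both rose in the shared test (adjusted p = 1.55e-21 and 1.05e-08). Tbx5, a T-box factor of the heart and forelimb, stayed under the level of 3 at 0.9 to 2.33 RPKM, with a log2 fold of 1.28, 95% interval 0.99 to 1.57, and did not pass (adjusted p = 0.299). Some markers of other tissues were also present at day 14, with Afp at 2512 RPKM for endoderm, Tnnt2 at 19 RPKM for heart, Cdh5 at 19.4 RPKM for endothelium and Csf1r at 10.3 RPKM for macrophages. Not every marker reached the level, and Ptprc, also a marker of macrophages, was under 3 RPKM at day 14.

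Of the 10888 genes, 781 were at least 2-fold higher at day 14 (7.17%) and 1354 at least 2-fold lower (12.4%). The median log2 fold was -0.08. In the shared test, 1366 of 12487 genes rose (10.9%) and 1167 fell (9.35%). Of the 2-fold higher genes, 717 of the 779 tested rose, and of the 2-fold lower genes, 868 of 1354 fell. These shares are the background against which each group of genes is read. A gene under 3 RPKM at day 10 was kept only through day 14 and could only be higher. A gene under 3 RPKM at day 14 could in the same way only be lower. The 2-fold counts of lists that hold such genes do not test direction.

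**Figure D1:**
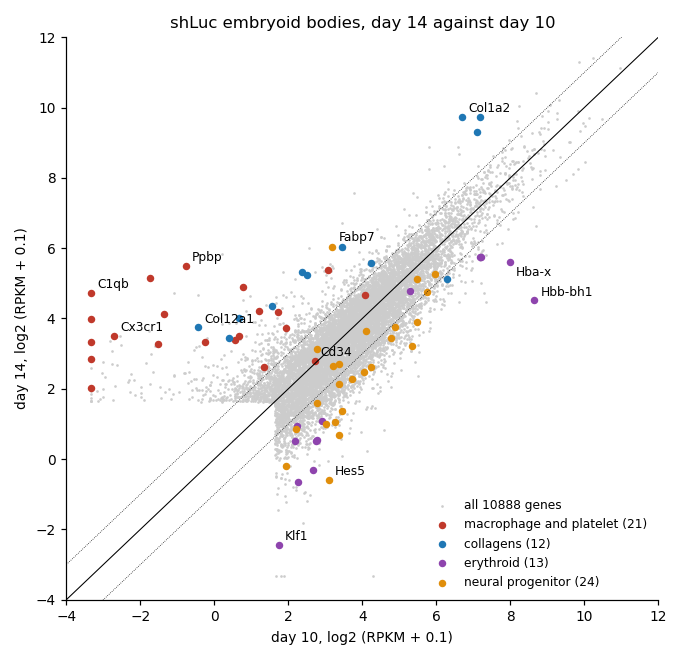
Level of each of the 10888 genes at day 10 (x axis) and day 14 (y axis) in shLuc EBs, log2 (RPKM + 0.1), 1 library per axis; the solid line marks equal levels and the dotted lines 2-fold. The macrophage and collagen genes lie above the upper dotted line except Cd34, Kit and Col18a1, and the erythroid genes below the solid line.

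The folds moved with the base composition of the transcripts, and more so in shLuc than in the other line. Across the 10467 genes with a known GC content, Spearman's rho between fold and GC was -0.53 in shLuc and -0.13 in shSmyd5, where points share a library pair. In the tenth of genes with the lowest GC content (median 40.2%) the median log2 fold was 0.46, with 134 genes 2-fold higher and 10 lower. In the tenth with the highest (median 59.9%) it was -0.79, with 28 higher and 412 lower. After a spline trend on GC and transcript length was taken off, 636 genes were 2-fold higher and 669 lower, so higher genes made up 48.7% of the called genes in place of 36.6%. Of the genes with a GC value, 66.8% of the 755 higher and 41.2% of the 1253 lower genes kept their call. What part this trend has in the folds of single genes was not tested, and values freed of it are given beside the groups.

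**Figure D2:**
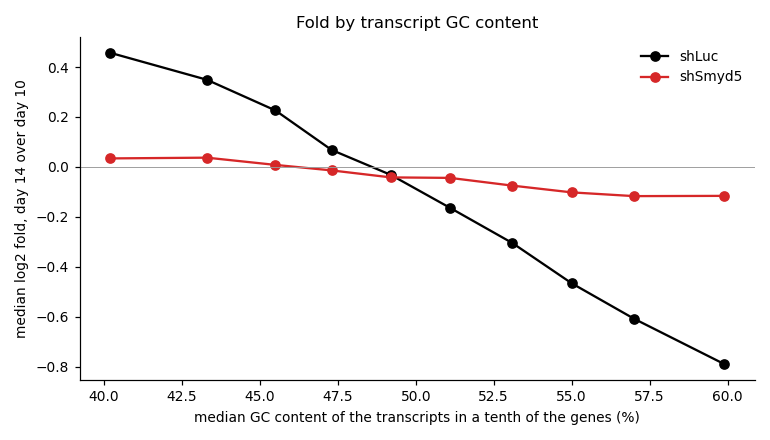
Median log2 fold of day 14 over day 10 (y axis) in 10 equal bins of the genes ordered by GC content of the transcript (x axis, percent), for shLuc (black) and shSmyd5 (red). The shLuc median falls from 0.46 to -0.79 over the bins, the shSmyd5 median from 0.03 to -0.12.

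Of the 47 gene lists, that of macrophages and platelets had the highest median fold. C1q, the complement protein that macrophages secrete, is built of chains from 3 genes that lie next to each other on chromosome 4, C1qb (136436044 to 136442102), C1qc (136445719 to 136448980) and C1qa (136451832 to 136454718, mm9, all on the minus strand). All 3 had 0 reads at day 10. At day 14 C1qb stood at 26.4 RPKM, at least 285-fold higher than the level that 3 reads would have given at day 10. For C1qc the day 14 level was 15.8 RPKM (at least 169-fold) and for C1qa 7.17 RPKM (at least 78.7-fold). The stretches of 250 bases before the starts of C1qb and C1qc (RefSeq, GRCm38.p6) are shown because these neighbours went from no read to a high level together. C1qa had no entry there. Capitals mark GAGGAA, the core of sites bound by PU.1, the myeloid master factor, on either strand.
C1qb, chr4:136886201-136886450, minus strand: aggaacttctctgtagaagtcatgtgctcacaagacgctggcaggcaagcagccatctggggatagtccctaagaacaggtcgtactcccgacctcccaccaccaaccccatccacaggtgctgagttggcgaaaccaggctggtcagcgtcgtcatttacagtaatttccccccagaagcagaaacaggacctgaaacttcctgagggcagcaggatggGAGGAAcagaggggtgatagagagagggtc
C1qc, chr4:136892915-136893164, minus strand: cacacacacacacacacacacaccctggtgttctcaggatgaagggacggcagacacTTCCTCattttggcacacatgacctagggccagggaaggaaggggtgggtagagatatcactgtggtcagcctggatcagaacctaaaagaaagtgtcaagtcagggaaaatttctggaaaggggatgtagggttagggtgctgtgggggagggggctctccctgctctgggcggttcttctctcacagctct
Each stretch held the 6 letters 1 time. They were found in 9 of the 16 promoters of this gene list that had an entry, in 21.7% of the 7726 promoters of genes at the RPKM level, and in 23.1% of all 27025 promoters. A match is a description of letters and no evidence of binding.

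Over the whole list, 21 of the 29 listed genes reached 3 RPKM, 19 were at least 2-fold higher and 0 at least 2-fold lower at day 14, and the median log2 fold was 4.10 (3.66 freed of GC, 4.53 in shSmyd5). The median level of the 21 genes was 0.746 RPKM at day 10 and 13.2 RPKM at day 14. Members under 3 RPKM at day 10 were kept only through day 14 and could only be higher, so these counts do not test direction. Of the members tested, 21 of 25 rose and 0 fell in the shared test. Genes of the phagocyte signalling complex were near 0 at day 10. Fcer1g, the common gamma chain of Fc receptors, measured 0.2 RPKM and then 35.8 RPKM, a log2 fold of 6.90, 95% interval 5.87 to 7.87. Tyrobp, the adaptor DAP12 of myeloid receptors, had 0.29 RPKM at day 10 and 17.3 RPKM at day 14, a log2 fold of 5.48, 95% interval 4.47 to 6.50. Cx3cr1, the fractalkine receptor of tissue macrophages and microglia, went from 0.0528 to 11.2 RPKM in shLuc and from 0.0343 to 9.09 RPKM in shSmyd5, so its low and high libraries stood in the same order in both lines (adjusted p = 5.41e-64).

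Csf1r and Cd68 of the same list had reads above 1 RPKM at day 10, while Lyz2, Ctss and Ptprc were near 0. Csf1r, the receptor for the macrophage growth factor CSF1, was at 1.38 RPKM at day 10 against 10.3 RPKM at day 14, a log2 fold of 2.81, 95% interval 2.59 to 3.04. Cd68, a lysosomal membrane protein, went from 3.71 to 13.2 RPKM, a log2 fold of 1.80, 95% interval 1.51 to 2.10, and had stood at 9.68 RPKM at day 6. Lyz2, the lysozyme of myeloid cells, went from 0.248 to 9.53 RPKM, and Ctss, a lysosomal protease, from 0 reads to 10 RPKM, at least 138-fold. Ptprc, the pan-leukocyte antigen CD45, was at 0 reads at day 10 and under 3 RPKM at day 14. The platelet chemokines were high at day 14, Ppbp with 0.486 to 45.1 RPKM and Pf4 with 1.62 to 29.4 RPKM.
The members with the lowest folds were those of progenitors. Runx1, the factor that blood stem cells need to form, went from 2.44 to 6.02 RPKM (log2 fold 1.27, 95% interval 1.13 to 1.41), Kit, the stem cell factor receptor, from 16.8 to 25.2 RPKM (log2 fold 0.58, 95% interval 0.52 to 0.65), and Cd34, a progenitor and endothelial surface protein, from 6.45 to 6.82 RPKM (log2 fold 0.08, 95% interval -0.09 to 0.24).
Ccl3, a macrophage chemokine, went from 0.0416 to 10.2 RPKM, F13a1, the transglutaminase of clotting that macrophages also make, from 0.373 to 26.2 RPKM, and Cd52, a small leukocyte surface glycoprotein, from 0.196 to 12.5 RPKM. The 3 are not on the list and were among the 15 highest folds of all genes at 10 RPKM or more.

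The primitive red cell genes went the other way. Of the erythroid list, 0 of the 13 genes that reached 3 RPKM were at least 2-fold higher and 12 at least 2-fold lower, with a median log2 fold of -2.25, of -2.59 freed of GC and of -0.71 in shSmyd5. Of the members tested, 1 of 14 rose and 7 fell in the shared test. Hbb-bh1, an embryonic beta-like globin, went from 401 to 22.9 RPKM, a log2 fold of -4.13, 95% interval -4.25 to -4.00, and from 177 to 40.6 RPKM in shSmyd5 (adjusted p = 8.45e-32). Hba-x, the embryonic zeta globin, stood at 254 RPKM at day 10 and 48.8 RPKM at day 14, a log2 fold of -2.38, 95% interval -2.47 to -2.28. Both had been near 0 at day 6, at 0 and 0.103 RPKM. Hbb-y, the embryonic epsilon-type globin, was the member with the smallest fold in shLuc, from 39 to 27.5 RPKM (log2 fold -0.51, 95% interval -0.66 to -0.35). It went from 21.4 to 107 RPKM in shSmyd5 and is the one list member that rose in the shared test, against its direction in shLuc.
The factors and enzymes of red cells were lower too. Klf1, the erythroid Kruppel-like factor, measured 3.23 RPKM and then 0.084 RPKM (log2 fold -4.18, 95% interval -4.74 to -3.45). Alas2, the first enzyme of erythroid heme synthesis, went from 4.71 to 0.534 RPKM (log2 fold -2.92, 95% interval -3.35 to -2.51). Gata1 and Tal1, regulators of blood formation, went from 4.42 to 1.33 and from 7.37 to 2.03 RPKM, and both fell in the shared test. The adult globins did not share a direction between the lines. Hba-a1 went from 147 to 53.3 RPKM in shLuc and from 73.4 to 163 RPKM in shSmyd5, and Hbb-b1 from 6.66 to 1.32 and from 0.307 to 2.86 RPKM. Hba-a1 and Hba-a2, and Hbb-b1, Hbb-b2 and Beta-s, are near-identical copies among which reads could be split, so the single values are uncertain. The letters AGATAA, of the kind that GATA factors bind, were in 2 of the 8 erythroid promoters with an entry, in 5.4% of those at the RPKM level and in 10.3% of all. The 250 bases before the starts of Hba-x and Hbb-y held these letters 0 times.

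The extracellular matrix formed the second large group. Of the collagens, 12 of 16 genes could be followed, and the day 14 level was at least 2-fold higher for 11 and at least 2-fold lower for 1 of them (median log2 fold 2.75, freed of GC 3.23, in shSmyd5 3.08), and 12 of 13 rose and 1 fell in the shared test. The chains of type I collagen, the main protein of connective tissue fibres, were Col1a2 with 104 to 856 RPKM (log2 fold 3.05, 95% interval 3.02 to 3.07) and Col1a1 with 144 to 856 RPKM (log2 fold 2.57, 95% interval 2.55 to 2.59). In shSmyd5 they went from 30.5 to 422 and from 48.8 to 529 RPKM. Collagens of the fibre surface and the pericellular microfibril were lower in level at day 10. Col12a1 went from 0.639 to 13.4 RPKM (log2 fold 4.19, 95% interval 4.02 to 4.36), and the type VI chain Col6a3 from 1.5 to 16.1 RPKM (log2 fold 3.34, 95% interval 3.22 to 3.47), beside Col6a1 with 5.04 to 39.9 and Col6a2 with 2.87 to 20.3 RPKM. Col18a1, the basement membrane collagen that yields endostatin, was the one member 2-fold lower, from 78.5 to 34.5 RPKM (log2 fold -1.18, 95% interval -1.23 to -1.14, and -0.35 freed of GC). At day 6 Col3a1 had stood at 0.00835 RPKM and Col1a2 at 0.449 RPKM. The letters CCAAT, which NF-Y binds, were in 3 of 8 collagen promoters with an entry, against 37.0% of the promoters at the RPKM level. Col1a2 holds them 1 time in the 250 bases before its start.

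Of the other mesenchyme and matrix genes, 27 of the 32 listed genes reached 3 RPKM, 17 were at least 2-fold higher and 0 at least 2-fold lower at day 14, and the median log2 fold was 1.73 (1.88 freed of GC, 1.22 in shSmyd5), and 20 of 27 rose and 0 fell in the shared test. Lox, the lysyl oxidase that cross-links collagen and elastin, went from 1.05 to 56.8 RPKM in shLuc and from 1.54 to 33.4 RPKM in shSmyd5, with a log2 fold in shLuc of 5.63 (95% interval 5.39 to 5.88) and the smallest adjusted p of all rising genes (5.42e-73). The small leucine-rich proteoglycans that bind collagen fibrils were higher together, Dcn with 13.5 to 188 RPKM, Lum with 56.1 to 473 RPKM and Fmod with 0.988 to 16 RPKM. Postn, periostin, went from 97.7 to 407 RPKM and Sparc, osteonectin, from 415 to 1377 RPKM, the latter among the 5 highest genes of day 14. Tgfbi, a matrix protein induced by TGF-beta, went from 10.9 to 105 RPKM and from 7.07 to 107 RPKM in shSmyd5. The fibrillins, microfibril proteins of the same list, were close to equal at both days. Fbn1 had 5.65 to 6 RPKM (log2 fold 0.09, 95% interval 0.00 to 0.17) and Fbn2 7.18 to 7.33 RPKM (log2 fold 0.03, 95% interval -0.05 to 0.11).
Of the enzymes that modify collagen, 6 of the 18 genes that reached 3 RPKM were at least 2-fold higher and 0 at least 2-fold lower, with a median log2 fold of 0.52, of 0.84 freed of GC and of 0.55 in shSmyd5. Beside Lox these included Pcolce, the enhancer of procollagen cleavage, with 7.64 to 40.9 RPKM, and the prolyl hydroxylase subunits P4ha1 with 57.2 to 126 and P4ha2 with 24.8 to 61.2 RPKM. The collagen chaperone Serpinh1 was high at both days (281 to 340 RPKM, log2 fold 0.27, 95% interval 0.25 to 0.30). Of the basement membrane list, 14 of 20 genes could be followed, and the day 14 level was at least 2-fold higher for 4 and at least 2-fold lower for 1 of them (median log2 fold 0.81, freed of GC 1.23, in shSmyd5 0.48). Nid1, nidogen, went from 24.9 to 60.6 RPKM, while the laminin chain Lama5 went from 15.4 to 7.6 RPKM (log2 fold -1.01, 95% interval -1.07 to -0.95, and -0.05 freed of GC).
Of the cartilage and bone list, 10 of the 21 listed genes reached 3 RPKM, 4 were at least 2-fold higher and 1 at least 2-fold lower at day 14, and the median log2 fold was 0.76 (0.33 freed of GC, 0.32 in shSmyd5). Spp1, osteopontin, had 5.79 RPKM at day 10 and 64.7 RPKM at day 14 (log2 fold 3.46, 95% interval 3.28 to 3.64). Bone cells and macrophages make it, but it was also high early in shLuc, at 221 RPKM in ES cells, 709 RPKM at 24 h and 38.7 RPKM at day 6. Col2a1, the cartilage collagen, went from 18.6 to 8.52 RPKM in shLuc (log2 fold -1.12, 95% interval -1.21 to -1.03, and -0.16 freed of GC) and from 7.57 to 9.57 RPKM in shSmyd5. Of the matrix proteases and their inhibitors, 3 of the 11 genes that reached 3 RPKM were at least 2-fold higher and 0 at least 2-fold lower, with a median log2 fold of 0.87, of 0.68 freed of GC and of 0.71 in shSmyd5, led by the metalloprotease inhibitor Timp1 with 2.95 to 10.5 RPKM.

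Most heart muscle genes that reached 3 RPKM were higher at day 14 in shLuc. Of the sarcomere and calcium list, 16 of 30 genes could be followed, and the day 14 level was at least 2-fold higher for 11 and at least 2-fold lower for 0 of them (median log2 fold 1.84, freed of GC 1.75, in shSmyd5 0.62), and 15 of 21 rose and 0 fell in the shared test. The median level of the 16 genes was 3.56 RPKM at day 10 and 11.4 RPKM at day 14. Those under 3 RPKM at day 10, such as Csrp3, Myl2 and Tnnt2, could only be higher, so the 2-fold counts do not test direction. Tnnt2, cardiac troponin T, went from 2.88 to 19 RPKM (log2 fold 2.68, 95% interval 2.39 to 2.98), and Actc1, cardiac alpha actin, from 8.69 to 46.5 RPKM (log2 fold 2.41, 95% interval 2.25 to 2.57). Myh6 and Myh7, the cardiac myosin heavy chains, went from 0.826 to 4.2 and from 1.32 to 4.86 RPKM. Csrp3, the Z-disc protein MLP, went from 0.11 to 5.28 RPKM (log2 fold 4.68, 95% interval 3.65 to 5.47), and Myl2, the ventricular light chain, from 0.156 to 3.58 RPKM (log2 fold 3.85, 95% interval 2.68 to 4.83). In shSmyd5 Tnnt2 went from 7.39 to 10.2 RPKM and Actc1 from 18.6 to 28.8 RPKM, where the level at day 10 was already higher than in shLuc. The difference between the lines was not tested.
The factors of heart development moved less. Of that list, 8 of the 18 listed genes reached 3 RPKM, 3 were at least 2-fold higher and 0 at least 2-fold lower at day 14, and the median log2 fold was 0.47 (0.74 freed of GC, -0.02 in shSmyd5). Gata6, a zinc finger factor of heart and endoderm, went from 21.9 to 51.3 RPKM, Mef2c, a muscle MADS-box factor, from 3.68 to 9.22 RPKM, and Hand2, a bHLH factor of the right ventricle, from 29.8 to 59.8 RPKM. Hand1, its relative in the left ventricle and extraembryonic mesoderm, was at 104 RPKM at day 10 against 87.8 RPKM at day 14 (log2 fold -0.24, 95% interval -0.29 to -0.19). In the smooth muscle list, 1 of 7 genes was 2-fold higher, Actg2, the enteric actin, with 1.4 to 14.6 RPKM (log2 fold 3.30, 95% interval 2.92 to 3.69). Acta2, the vascular one, went from 99.6 to 139 RPKM.

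**Figure D3:**
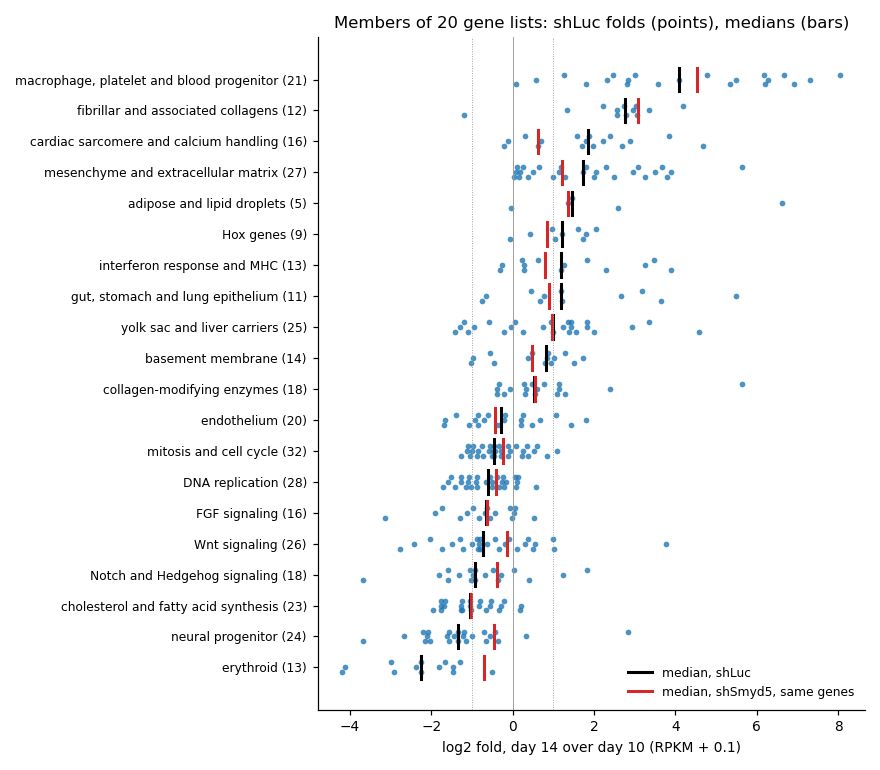
Log2 folds of day 14 over day 10 (x axis) of the members at the RPKM level of 20 gene lists (y axis, number of members in brackets); points are genes in shLuc, black bars their median, and red bars the median of the same genes in shSmyd5. Dotted lines mark 2-fold. Medians in shLuc run from -2.25 in the erythroid list to 4.10 in the macrophage and platelet list.

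Most neural progenitor genes were lower at day 14, while the marker Fabp7 was higher. Of this list, 1 of the 24 genes that reached 3 RPKM were at least 2-fold higher and 16 at least 2-fold lower, with a median log2 fold of -1.35, of -1.05 freed of GC and of -0.45 in shSmyd5, and 1 of 25 rose and 14 fell in the shared test. Hes5, a Notch target that keeps neural stem cells from differentiating, stood at 8.41 RPKM at day 10 and 0.567 RPKM at day 14 (log2 fold -3.67, 95% interval -4.18 to -3.18). Sox3 and Sox1, SoxB1 factors of the neural plate, went from 10.1 to 1.52 and from 18.6 to 6.04 RPKM. Forebrain factors were lower as well, Fezf2 with 9.47 to 1.98 RPKM, Emx2 with 8.01 to 1.89 RPKM and Otx2 with 44.5 to 15 RPKM. Nes, the intermediate filament of neural stem cells, went from 16.5 to 5.5 RPKM (log2 fold -1.56, 95% interval -1.66 to -1.47), and Msi1, an RNA-binding protein of the same cells, from 40.2 to 9.2 RPKM (log2 fold -2.11, 95% interval -2.25 to -1.98).
Several of these genes had hardly been present in shSmyd5 at day 10. Fabp7 went from 0.336 to 0.57 RPKM there, Hes5 from 0.101 to 0.0401 RPKM and Fezf2 from 0.139 to 0.0998 RPKM, so that nearly all their reads in the shared test come from the shLuc pair. Otx2 went from 16.6 to 5.71 RPKM there and Sox1 from 1.27 to 0.38 RPKM, and both fell in the shared test.
Genes of neurons were spread over both directions. Of that list, 13 of 32 genes could be followed, and the day 14 level was at least 2-fold higher for 5 and at least 2-fold lower for 1 of them (median log2 fold 0.38, freed of GC 0.35, in shSmyd5 -0.19). Nefl, the light neurofilament, went from 7.22 to 19 RPKM and Ncam1, the neural cell adhesion molecule, from 8.46 to 18.7 RPKM, and both rose in the shared test. Tubb3, neuronal beta tubulin, went from 19.1 to 17.1 RPKM and Stmn2, a growth cone protein, from 15.7 to 12.3 RPKM. Sst, the peptide somatostatin, measured 10 RPKM and then 3.66 RPKM. In the list of glia and neural crest, 2 of 5 genes were 2-fold higher, with Ednrb, the endothelin receptor of crest cells, at 7.4 to 43.8 RPKM (log2 fold 2.55, 95% interval 2.45 to 2.65).

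**Figure D4:**
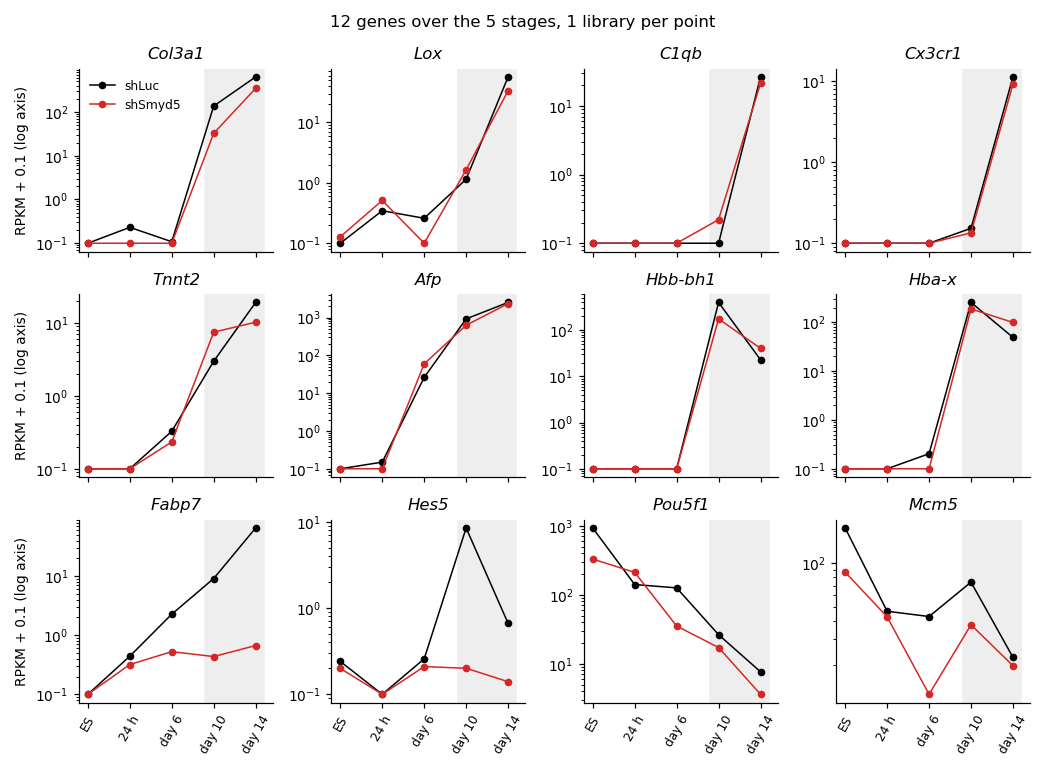
Level of 12 genes (y axis, RPKM + 0.1, log axis) over the 5 stages (x axis) in shLuc (black) and shSmyd5 (red), 1 library per point; the grey band holds day 10 and day 14. Hbb-bh1 and Hba-x peaked at day 10 in both lines, C1qb and Cx3cr1 were near 0 until day 14, and Fabp7 was high in shLuc only.

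Genes of the visceral endoderm and liver were spread over both directions. Of the yolk sac and liver list, 25 of the 28 listed genes reached 3 RPKM, 12 were at least 2-fold higher and 4 at least 2-fold lower at day 14, and the median log2 fold was 0.99 (0.87 freed of GC, 0.98 in shSmyd5), and 16 of 27 rose and 5 fell in the shared test. Afp, alpha-fetoprotein, had 922 RPKM at day 10 and 2512 RPKM at day 14 (log2 fold 1.45, 95% interval 1.43 to 1.46) and became the second highest gene of the library. Trf, transferrin, went from 74.7 to 192 RPKM and Ttr, transthyretin, from 292 to 785 RPKM. The liver plasma proteins were lower in level and higher in fold. Alb, albumin, went from 0.177 to 6.53 RPKM (log2 fold 4.58, 95% interval 3.98 to 5.15), Fgg, a fibrinogen chain, from 1.72 to 18.5 RPKM (log2 fold 3.35, 95% interval 3.04 to 3.68), and Vtn, vitronectin, from 2.29 to 18.4 RPKM (log2 fold 2.94, 95% interval 2.69 to 3.21).
The 4 members that were 2-fold lower were Apoc2, the activator of lipoprotein lipase, with 152 to 62.1 RPKM, and 3 parts of the receptor complex with which visceral endoderm takes up maternal proteins, Amn with 30.6 to 11.3 RPKM, Cubn with 58.8 to 27.2 RPKM and Lrp2 with 9.97 to 4.33 RPKM. In shSmyd5 these receptors went from 34 to 15.6, from 93.2 to 33.9 and from 15.6 to 6.12 RPKM, and all 4 genes fell in the shared test.
Among endoderm transcription factors, 3 of the 15 genes that reached 3 RPKM were at least 2-fold higher and 1 at least 2-fold lower, with a median log2 fold of 0.45, of 0.86 freed of GC and of 0.30 in shSmyd5. Foxa1, a pioneer factor of gut and liver, went from 8.08 to 17.2 RPKM, Tcf7l2, a Wnt effector, from 10.6 to 28.2 RPKM, and Cdx2, the hindgut factor, from 10.6 to 4.2 RPKM (log2 fold -1.32, 95% interval -1.50 to -1.13). Of gut, stomach and lung epithelium, 11 of 29 genes could be followed, and the day 14 level was at least 2-fold higher for 6 and at least 2-fold lower for 0 of them (median log2 fold 1.19, freed of GC 0.76, in shSmyd5 0.90). The highest fold in it was that of Clca1, at 0.0217 to 5.33 RPKM. The gastrokines Gkn2 and Gkn1 followed at 1.06 to 14.4 and 0.269 to 3.23 RPKM, and Krt20, an intestinal keratin, at 1.04 to 7.07 RPKM. All 4 rose in the shared test. All 4 also stood under 3 RPKM at day 10 and were kept only through day 14, where they could only be higher. The median level of the 11 genes was 2.83 RPKM at day 10 and 5.33 RPKM at day 14, so the 2-fold counts do not test direction. The lung surfactant genes Sftpa1, Sftpb and Sftpc had 0 reads at day 10.

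Endothelial genes split. Of that list, 20 of the 23 listed genes reached 3 RPKM, 3 were at least 2-fold higher and 4 at least 2-fold lower at day 14, and the median log2 fold was -0.28 (0.07 freed of GC, -0.43 in shSmyd5). The pan-endothelial cadherin Cdh5 went from 16.8 to 19.4 RPKM (log2 fold 0.20, 95% interval 0.12 to 0.28) and Pecam1 from 11.6 to 14 RPKM (log2 fold 0.26, 95% interval 0.16 to 0.37), neither past the shared test. Emcn, endomucin, and Lyve1, a hyaluronan receptor of lymphatic endothelium and some macrophages, went from 2.63 to 9.5 and from 4.46 to 12.2 RPKM and rose. Tie1, Egfl7 and Aplnr, genes of growing vessels, went from 7.33 to 2.23, from 21.2 to 6.7 and from 16.5 to 6.24 RPKM and fell. Of the adipose list, 4 of 5 genes were 2-fold higher. Fabp4, a fatty acid carrier of fat cells, macrophages and capillaries, went from 0 reads to 9.73 RPKM, at least 63.3-fold, and Lpl, lipoprotein lipase, from 6.51 to 40.1 RPKM, while Adipoq, Plin1 and Lep, which define fat cells, had 0 reads at day 10 and were under 3 RPKM at day 14.

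Most Hox genes that reached the level were those of the trunk and posterior body. Of the list, 6 of the 9 genes that reached 3 RPKM were at least 2-fold higher and 0 at least 2-fold lower, with a median log2 fold of 1.20, of 1.41 freed of GC and of 0.84 in shSmyd5. In the shared test 5 of 15 rose and 2 fell. The median level of the 9 genes was 2.26 RPKM at day 10 and 4.79 RPKM at day 14. Those under 3 RPKM at day 10 were kept only through day 14, so the 2-fold counts do not test direction. Hoxc8 went from 4.78 to 17 RPKM (log2 fold 1.81, 95% interval 1.64 to 1.98), Hoxc9 from 1.64 to 5.7 RPKM, Hoxc10 from 1.63 to 5.16 RPKM and Hoxd13 from 0.688 to 3.19 RPKM.

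In 3 of the 4 signalling lists more genes were 2-fold lower than higher, as was so over all genes (12.4% lower and 7.17% higher). Freed of GC, 3 genes were higher and 5 lower in the Wnt list, and 0 and 4 in the FGF list. For Notch and Hedgehog lower genes were then not the more frequent, and over all genes 636 were higher and 669 lower. Of the Wnt list, 26 of 38 genes could be followed, and the day 14 level was at least 2-fold higher for 2 and at least 2-fold lower for 7 of them (median log2 fold -0.72, freed of GC -0.40, in shSmyd5 -0.14), and 4 of 31 rose and 8 fell in the shared test. The ligands Wnt8b, Wnt7b and Wnt1, expressed in embryonic brain, went from 18.7 to 2.65, from 13.3 to 2.4 and from 11.8 to 3.43 RPKM, and in shSmyd5 from 0.0948 to 0.182, from 1.04 to 1.81 and from 1.05 to 0.959 RPKM. Axin2, a feedback inhibitor that reports the pathway, went from 11.1 to 4.77 RPKM (log2 fold -1.21, 95% interval -1.33 to -1.08). The inhibitor Dkk2 went from 1.6 to 23 RPKM (log2 fold 3.76, 95% interval 3.55 to 3.97) and the secreted antagonist Sfrp1 from 35.8 to 72.9 RPKM.
Of the FGF list, 16 of the 23 listed genes reached 3 RPKM, 0 were at least 2-fold higher and 5 at least 2-fold lower at day 14, and the median log2 fold was -0.65 (-0.48 freed of GC, -0.63 in shSmyd5). Fgf8, a ligand of the streak and the midbrain organizer, went from 8.3 to 0.859 RPKM (log2 fold -3.13, 95% interval -3.59 to -2.69) and from 3.63 to 0.32 RPKM in shSmyd5. The receptor Fgfr1 went from 47.7 to 19.6 RPKM and the FGF-induced factor Etv4 from 4.37 to 1.25 RPKM, and all 3 fell in the shared test. Of the Notch and Hedgehog list, 2 of the 18 genes that reached 3 RPKM were at least 2-fold higher and 7 at least 2-fold lower, with a median log2 fold of -0.93, of -0.35 freed of GC and of -0.39 in shSmyd5, and freed of GC 2 genes were 2-fold higher and 1 lower. Notch3, a receptor, went from 19.9 to 5.62 RPKM (-0.92 freed of GC), Gli1, a Hedgehog target and effector, from 7.68 to 2.51 RPKM (-0.85 freed of GC), and Hhip, the Hedgehog inhibitor, from 3.03 to 11.1 RPKM.
Of the BMP and TGF-beta list, 20 of 30 genes could be followed, and the day 14 level was at least 2-fold higher for 3 and at least 2-fold lower for 3 of them (median log2 fold 0.15, freed of GC 0.10, in shSmyd5 -0.04). Id3, a BMP target, went from 146 to 31.8 RPKM (log2 fold -2.20, 95% interval -2.29 to -2.10) and the ligand Bmp6 from 7.93 to 2.27 RPKM, while the ligand Tgfb3 went from 1.67 to 5.6 RPKM.

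Growth genes of the insulin-like growth factor axis included the highest gene of the day 14 library. Of the list, 23 of the 24 listed genes reached 3 RPKM, 6 were at least 2-fold higher and 4 at least 2-fold lower at day 14, and the median log2 fold was 0.31 (0.55 freed of GC, 0.09 in shSmyd5). Igf2, the fetal growth factor, went from 1214 to 2729 RPKM (log2 fold 1.17, 95% interval 1.16 to 1.18) and from 985 to 1776 RPKM in shSmyd5 (adjusted p = 0.00471). Plagl1, an imprinted zinc finger factor, went from 74.2 to 324 RPKM and the binding proteins Igfbp1 and Igfbp3 from 44.1 to 175 and from 21 to 93.6 RPKM. H19, the maternally expressed RNA beside Igf2, went from 209 to 101 RPKM in shLuc and from 194 to 197 RPKM in shSmyd5. Igfbp2 stood at 245 RPKM at day 10 and 93.5 RPKM at day 14 (log2 fold -1.39, 95% interval -1.44 to -1.34).

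Remaining pluripotency transcripts were mixed. Of the list, 2 of the 17 genes that reached 3 RPKM were at least 2-fold higher and 3 at least 2-fold lower, with a median log2 fold of -0.39, of -0.10 freed of GC and of -1.11 in shSmyd5. Pou5f1, which encodes Oct4, went from 26.4 to 7.56 RPKM (log2 fold -1.79, 95% interval -1.96 to -1.62), Lin28a, the let-7 inhibitor, from 124 to 33.3 RPKM, and Nanog from 11.4 to 6.33 RPKM, and all 3 fell in the shared test. Zfp42, Rex1, went from 5.65 to 8.1 RPKM in shLuc and from 8.99 to 5.31 RPKM in shSmyd5, neither past the test. Klf4, which is also a factor of differentiated epithelia, measured 4.67 RPKM and then 15.5 RPKM (log2 fold 1.71, 95% interval 1.56 to 1.86).

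Of the DNA replication and lipid synthesis lists, 10 of 28 and 13 of 23 genes were 2-fold lower, against 12.4% of all genes. Freed of GC, 6 and 11 were 2-fold lower, and in shSmyd5 0 and 13 were. Of the DNA replication list, 28 of 29 genes could be followed, and the day 14 level was at least 2-fold higher for 0 and at least 2-fold lower for 10 of them (median log2 fold -0.61, freed of GC -0.74, in shSmyd5 -0.40), and 0 of 29 rose and 12 fell in the shared test. The helicase subunits Mcm5, Mcm2 and Mcm3 went from 73.9 to 22.4, from 55.8 to 18.5 and from 67.9 to 23.6 RPKM. Pcna, the sliding clamp, had 104 RPKM at day 10 and 111 RPKM at day 14 (log2 fold 0.10, 95% interval 0.04 to 0.15). Of the mitosis and cell cycle list, 4 of 32 were 2-fold lower, a share near that of all genes, and 1 higher, with Ccnd1, a G1 cyclin, at 34.1 to 14.2 RPKM and Mki67, the Ki-67 antigen, at 35.9 to 42.2 RPKM (log2 fold 0.23, 95% interval 0.20 to 0.27). Cad, the enzyme that starts pyrimidine synthesis, was among the 15 lowest folds of genes at 10 RPKM or more, from 27.2 to 4.06 RPKM (log2 fold -2.71, 95% interval -2.81 to -2.62).
Of the cholesterol and fatty acid list, 23 of the 24 listed genes reached 3 RPKM, 0 were at least 2-fold higher and 13 at least 2-fold lower at day 14, and the median log2 fold was -1.04 (-0.88 freed of GC, -1.03 in shSmyd5), and 0 of 23 rose and 17 fell in the shared test. Fasn, fatty acid synthase, was at 38.9 RPKM at day 10 against 9.9 RPKM at day 14 (log2 fold -1.96, 95% interval -2.02 to -1.91). Mvd and Lss, enzymes of the sterol pathway, went from 31.2 to 9.09 and from 20.3 to 5.91 RPKM. Srebf2, the factor that drives the pathway, went from 70.9 to 21 RPKM. In shSmyd5 Mvd went from 16.3 to 4.1 RPKM and Fasn from 19.3 to 7.46 RPKM, and the direction of these enzymes was the same in both lines.
Of the glycolysis and hypoxia list, 0 of the 28 genes that reached 3 RPKM were at least 2-fold higher and 7 at least 2-fold lower, with a median log2 fold of -0.41, of -0.22 freed of GC and of -0.21 in shSmyd5. Pfkl, liver phosphofructokinase, went from 97.5 to 22.2 RPKM, Slc2a3, the glucose transporter GLUT3, from 721 to 245 RPKM, and Ddit4, an mTOR inhibitor that hypoxia and other stresses induce, from 109 to 26.3 RPKM. These were among the 7 members that fell in the shared test. The 4 members that rose were Ankrd37, Ndrg1, Adm and Vegfa (11.6 to 21.9, 19.6 to 31.4, 2.95 to 4.74 and 37.4 to 57.8 RPKM). Ribosomal protein genes had a median log2 fold of 0.03 over 34 genes (-0.38 freed of GC), and 7 were 2-fold lower. Rps2 went from 156 to 26.5 RPKM (-2.45 freed of GC) and Rps14 from 413 to 98.3 RPKM, while Rpl23 went from 261 to 455 RPKM (log2 fold 0.80, 95% interval 0.77 to 0.84, and 0.18 freed of GC). Many ribosomal protein genes have pseudogene copies, so these counts are uncertain.

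Genes that interferon induces and MHC class I genes were more often higher than lower. Of the interferon and MHC list, 13 of 20 genes could be followed, and the day 14 level was at least 2-fold higher for 7 and at least 2-fold lower for 0 of them (median log2 fold 1.19, freed of GC 0.80, in shSmyd5 0.81), and 9 of 15 rose and 0 fell in the shared test. Oasl2, Ifit1 and Isg15, which interferon induces, went from 0.199 to 4.32, from 0.51 to 6.7 and from 0.478 to 5.38 RPKM. B2m, the light chain of MHC class I, went from 96 to 470 RPKM (log2 fold 2.29, 95% interval 2.23 to 2.35, and 1.28 freed of GC). Of the immediate early genes, 3 of 15 were 2-fold higher, Egr1 with 5.01 to 24.7 RPKM, Fos with 3.12 to 10.5 RPKM and Zfp36 with 5.3 to 15.7 RPKM. Of the p53 targets, 19 of the 20 listed genes reached 3 RPKM, 2 were at least 2-fold higher and 5 at least 2-fold lower at day 14, and the median log2 fold was -0.29 (-0.20 freed of GC, -0.30 in shSmyd5), and Mdm2, the p53 inhibitor, stood at 28.1 RPKM at day 10 and 50.6 RPKM at day 14. Of the stress and unfolded protein response list, 2 of the 22 genes that reached 3 RPKM were at least 2-fold higher and 5 at least 2-fold lower, with a median log2 fold of -0.05, of -0.11 freed of GC and of -0.04 in shSmyd5, with Phgdh, which starts serine synthesis, at 32.6 to 7.19 RPKM and Dnajb9, an ER chaperone, at 13.5 to 45.1 RPKM.

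Smyd5, the methyltransferase that the other hairpin targets, went from 24.9 to 13.1 RPKM in shLuc (log2 fold -0.92, 95% interval -1.03 to -0.82, and -0.55 freed of GC) and from 9.14 to 6.88 RPKM in shSmyd5, and did not pass the shared test (adjusted p = 0.0738). Both shSmyd5 libraries lay below both shLuc libraries. Of the SMYD and H4K20 methylation list, 15 of 16 genes could be followed, and the day 14 level was at least 2-fold higher for 0 and at least 2-fold lower for 2 of them (median log2 fold -0.46, freed of GC -0.55, in shSmyd5 -0.17). Suv420h2, an enzyme that places trimethylation on H4K20, went from 22.5 to 6.97 RPKM (log2 fold -1.67, 95% interval -1.81 to -1.54, and -0.94 freed of GC), and Cbx5, which encodes HP1 alpha, from 78.5 to 37.3 RPKM (log2 fold -1.07, 95% interval -1.10 to -1.04).

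Outside the lists, the lowest folds among genes at 10 RPKM or more included Cfc1, the Nodal co-receptor Cryptic of left-right patterning, with 17.3 to 1.07 RPKM (log2 fold -3.90, 95% interval -4.34 to -3.48), and Metrn, a neurotrophic secreted protein, with 23.9 to 1.66 RPKM (log2 fold -3.77, 95% interval -4.08 to -3.47). Foxh1, the Smad partner that mediates Nodal signals, went from 17.1 to 2.6 RPKM and from 18.9 to 0.973 RPKM in shSmyd5, and Trh, thyrotropin-releasing hormone, from 32.4 to 8 RPKM. Cfc1, Foxh1 and Trh were among the 8 smallest adjusted p of falling genes (4.17e-23, 9.62e-19 and 6.03e-14).
Some of the lowest folds belonged to small RNAs, which are short, so that few reads make a high RPKM. Snora64, an H/ACA small nucleolar RNA, had 19.4 RPKM at day 10 and 0 reads at day 14, at least 29.3-fold lower. It lies within the bounds of Rps2, and its reads cannot be told from those of RNA of that gene. Mir675, which lies within H19, measured 163 RPKM and then 22.1 RPKM, and its reads cannot be told from those of H19.
At the upper end, Gabrp, a GABA-A receptor subunit, went from 0.0701 to 11.3 RPKM in shLuc and from 0 to 0.218 RPKM in shSmyd5.

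The shSmyd5 pair of libraries shares no sample with the shLuc pair. Over the same 10888 genes, kept by their level in shLuc, 448 were 2-fold higher and 239 2-fold lower in shSmyd5, with a median log2 fold of -0.04. Of the 781 genes 2-fold higher in shLuc, 356 (45.6%) were also 2-fold higher in shSmyd5, which is 79.5% of those 448, and 763 (97.7%) were higher at all. Of the 1354 genes 2-fold lower in shLuc, 153 (11.3%) were also 2-fold lower in shSmyd5, which is 64.0% of those 239, and 1252 (92.5%) were lower at all. Across the 10888 genes, which are not independent replicates, Pearson's r between the folds was 0.76 and Spearman's rho 0.71. Freed of GC, r was 0.82. The macrophage and collagen lists had medians of 4.10 and 2.75 in shLuc and of 4.53 and 3.08 in shSmyd5. The erythroid, neural progenitor and cardiac sarcomere lists had -2.25, -1.35 and 1.84 in shLuc and -0.71, -0.45 and 0.62 in shSmyd5. With 1 library per day and line the difference between the lines was not tested.

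**Figure D5:**
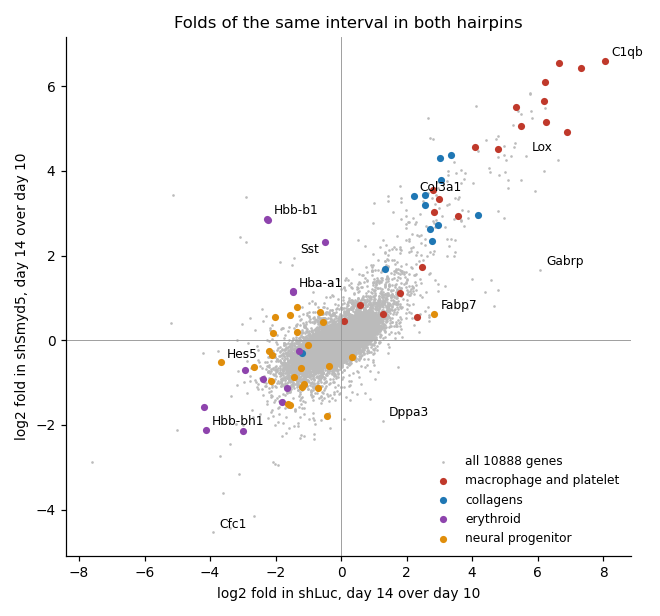
Log2 fold of day 14 over day 10 in shLuc (x axis) and in shSmyd5 (y axis) of the 10888 genes, 1 pair of libraries per axis; 4 gene lists are coloured. The macrophage and collagen genes other than Col18a1 lie in the upper right, Hbb-bh1 in the lower left, and the adult globins Hba-a1 and Hbb-b1 in the upper left.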

How the data were processed

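PolyA RNA of shLuc and shSmyd5 ES cells and EBs was sequenced as single-end reads, 1 library per stage and line. Mapping was to the mouse build mm9, and the submitters' processing notes name Bowtie2 and CASAVA with no role (versions are not given in the sources used here). The authors deposited, for 29257 RefSeq transcripts, whole read counts and RPKM values. The authors' RPKM lay within 1% of the value that read count, transcript length and library size give in 100% of values over 200 reads. The files record no strand, so overlapping antisense genes cannot be told apart.

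Groups came from the labels, which do not say that the libraries are separate cultures, so p-values measure only the spread between these samples. Folds used a pseudocount of 0.1 RPKM. The shared test was edgeR 4.0.16 (R 4.3.3, limma 3.58.1 and DESeq2 1.42.0 as alternatives) on the deposited counts with TMM scaling, over the 12487 genes whose RPKM averaged 1 or more, with Benjamini-Hochberg adjustment. The fold intervals and the edgeR fit were tested on simulated data. GC content was had for 20234 symbols and coordinates for 21527 from GENCODE M1 on NCBIM37 (mm9), and promoters from RefSeq (GRCm38.p6), which is another build. Reads per library set the counting error, and the intervals cover that error only.

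The members, the 47 gene lists and the alternatives were chosen with earlier results of these data known. Genes named were Col3a1, Fabp7, Tbx5 and Smyd5, the 15 highest and 15 lowest folds at 10 RPKM or more, up to 4 highest, 4 lowest and 3 most abundant of each list, the 8 smallest adjusted p in each direction and the 5 highest genes of each library. Named outside that rule, after their values were seen, were Axin2, C1qa, Col6a1, Col6a2, Csf1r, Emx2, Gata1, Hbb-b1, Hbb-b2, Lyz2, Mdm2, Mki67, Msi1, Myf5, Myf6, Myog, Myh6, Myh7, Nanog, Nes, Pecam1, Pf4, Postn, Ptprc, Rspo2, Sox1, Tal1, Trf, Vegfa, Zfp42, Adipoq, Plin1, Lep and the Sftp genes. Some genes that the rule names are not reported here.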

Additional observations from a re-analysis of the deposited data

Results flagged for a closer look

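In 5 of the genes named by the rule, the fold was at least 2-fold in opposite directions in the lines, beyond counting error. Each line has 1 library per day, so the difference between the lines was not tested. The globin Beta-s had a log2 fold of -2.89 in shLuc and 2.31 in shSmyd5, and the adult alpha globins Hba-a1 and Hba-a2 had -1.46 and -1.45 against 1.15 and 1.15. These globins have near-identical copies, among which reads could be split. Sst, somatostatin, had -1.43 against 1.95, with 2 and 26 reads in the shSmyd5 libraries. Dppa3, a germ cell and preimplantation gene, had 1.28 against -1.91. Over all 10888 genes, 12 had folds of at least 2 in opposite directions, 8 of them beyond counting error in both lines. The others are Hbb-b1 (-2.25 against 2.86), its near-identical copy Hbb-b2, Rspo2, a Wnt agonist (-1.50 in shLuc, while in shSmyd5 it had 0 and 32 reads), and 4 small RNAs whose intervals in shSmyd5 include 0.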

How the results depend on the processing

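No paired analysis was possible because the labels give no replicate numbers and each group has 1 library, so the one block in the shared test is the hairpin. The shared test with no hairpin block called 93 genes higher and 6 lower, against 1366 and 1167 with the block. Fitted with all 10 libraries, it called 11 and 1, and DESeq2 called 969 and 743. limma on log2 RPKM called 1205 higher and 1542 lower, which turned the split of called genes from 53.9% to 43.9% higher. The count of 2-fold higher genes in shLuc (781) was 426 at 10 RPKM or more in either library, 1822 with no RPKM filter and 1945 at 1.5-fold. The count of 2-fold lower genes (1354) was 763, 2264 and 2794 in the same settings and 669 freed of GC and length. The other settings stayed within 1.5 times. TMM, DESeq2 size factors and centring on the median moved every log2 fold by 0.05 to 0.06. Freed of GC and length, 302 of 395 named genes moved beyond their counting interval (Fabp7 to 1.82), and with a pseudocount of 1 RPKM 105 of 405. Of the named genes 2-fold different in shLuc and at 3 RPKM or more in a shSmyd5 library, 6 had the other direction there, Beta-s (2.31), Hba-a1 (1.15), Hba-a2 (1.15), Junb (0.48), Col2a1 (0.33) and H19 (0.02). Others, such as Sst, Dppa3, Wnt7b and Wnt8b, were under 3 RPKM there, and the cause was not tested. With 1 library per day, no replicate could be left out within shLuc.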

Other observations

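The remaining gene lists had few members at 3 RPKM or few folds of 2. Of 3 skeletal muscle genes 1 was 2-fold higher and 1 lower, and the myogenic factors Myf5, Myf6 and Myog had 0 reads at day 10. Of 23 genes of epithelial junctions and simple keratins 3 were higher and 0 lower, and the median log2 fold was 0.04. Epcam, an epithelial adhesion protein, went from 37.1 to 81.9 RPKM, and Krt8, a simple keratin, from 155 to 88.1 RPKM. Of 24 replication-dependent histone genes 7 reached 3 RPKM and 2 of these were higher, Hist1h2bc and Hist1h1c, with log2 folds of 1.92 and 1.91. These libraries hold polyA RNA, so the values cover only the polyadenylated RNA of histone genes. Of 11 trophoblast genes 1 was higher and 1 lower, and of 30 respiratory chain genes 1 was higher and 2 lower. Of 5 genes of the primitive streak and early mesoderm 1 was higher and 2 lower. Lists of the eye, the epidermis, motile cilia, the kidney and water channels had 3 or 4 members each at the level. Of those, Osr1, a factor of intermediate mesoderm, went from 0.555 to 3.28 RPKM, and Tcf21, a factor of mesothelium and podocytes, from 2.4 to 8.64 RPKM.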
